A study of Mus musculus with 16 samples.

Results

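The NF-kB family and its IkB inhibitors were followed as 10 genes in mouse brain RNA, chosen by symbol and mapped to Ensembl IDs in a table of 33289 IDs. They were the 5 subunit genes Rela, Nfkb1, Relb, Nfkb2 and Rel, the 3 cytoplasmic inhibitor genes Nfkbia, Nfkbib and Nfkbie, and the 2 genes of nuclear IkB proteins, Bcl3 and Nfkbiz. All 10 had a value in every library. RNA came from hemi-brains of C57BL/6J mice aged 3 to 4 months, perfused with PBS and sampled 8 h after injection of saline or of lipopolysaccharide (LPS), the outer membrane component of Gram-negative bacteria that is sensed by Toll-like receptor signalling. There were 4 groups of 4 libraries: wild type with saline, wild type with LPS, Lcn2-/- with saline and Lcn2-/- with LPS. Lcn2 encodes lipocalin-2, a secreted acute phase protein that binds bacterial siderophores, and the label gives no cell type restriction of the deletion. Not given in the sources used here were the dose of LPS and the design of the Lcn2 allele.

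NF-kB is a family of dimeric transcription factors. In resting cells IkB proteins hold most dimers in the cytoplasm. Signals from Toll-like receptors and from receptors for tumour necrosis factor and interleukin-1 activate the IkB kinase (IKK), which marks the IkB for destruction and frees the dimer to enter the nucleus. Rela, Rel and Relb carry transactivation domains, while Nfkb1 and Nfkb2 encode precursors that are processed into DNA-binding partners. Several genes of the family are textbook targets of NF-kB themselves. Nfkbia is the best known of them, and its resynthesis closes a negative feedback loop. In the brain, microglia, endothelial cells and astrocytes are known to use this pathway during systemic inflammation. These measurements are of RNA only, and neither IkB protein loss nor nuclear entry was measured.

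Promoter sequences are shown for 5 members because they differ in whether the window holds the DNA motif that NF-kB binds. The RefSeq promoter table (GRCm38.p6, 250 bases before to 50 bases from each start) held 9 windows for 7 of the 10 members; Nfkb1, Relb and Nfkbiz were not matched. On both strands, the kB consensus was found in 2779 of all 32851 windows (8.46%), and each of the shorter patterns GGNNTTTCC and GGNNTTCCC, which overlap it, in 1913 (5.82%). Among the members, the consensus lay in windows of Nfkbia, Nfkb2, Nfkbie, Bcl3 and Rel, and not in those of Rela or Nfkbib. Printed 5′ to 3′ on the strand of the gene, trimmed to 20 bases from the start, with bases of a consensus match on either strand in capitals, they read:
Nfkbia, chr12:55492628-55492847, minus strand: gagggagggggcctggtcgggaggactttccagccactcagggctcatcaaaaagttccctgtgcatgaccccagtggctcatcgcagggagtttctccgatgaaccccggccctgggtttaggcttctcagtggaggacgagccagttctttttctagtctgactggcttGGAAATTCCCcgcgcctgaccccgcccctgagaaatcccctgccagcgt
Nfkb2, chr19:46304617-46304756, plus strand: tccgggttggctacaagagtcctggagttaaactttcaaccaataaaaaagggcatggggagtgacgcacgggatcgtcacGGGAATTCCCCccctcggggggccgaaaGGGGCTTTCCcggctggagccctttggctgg
Nfkbie, chr17:45555580-45555719, plus strand: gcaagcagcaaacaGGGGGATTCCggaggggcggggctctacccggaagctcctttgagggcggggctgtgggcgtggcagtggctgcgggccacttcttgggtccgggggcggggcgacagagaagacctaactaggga
Bcl3, chr7:19822736-19822875, minus strand: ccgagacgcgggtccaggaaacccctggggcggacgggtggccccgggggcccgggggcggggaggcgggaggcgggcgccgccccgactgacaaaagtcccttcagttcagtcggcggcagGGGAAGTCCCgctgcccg
Rela, chr19:5637421-5637560, plus strand: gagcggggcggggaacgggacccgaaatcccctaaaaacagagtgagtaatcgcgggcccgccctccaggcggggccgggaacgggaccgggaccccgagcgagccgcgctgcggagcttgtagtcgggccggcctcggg

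The match in Nfkbia began 29 bases before the start and read in the opposite direction, and GGNNTTTCC was found a further time, 178 bases before the start. The first of 3 windows of Nfkb2 held matches 39 and 11 bases before the start. The Nfkbie match lay 106 bases before the start, the Rel match 92 bases before it, and the Bcl3 match 2 bases past it. A match describes letters in a window and does not show that a factor was bound there, and no match says only that these letters were absent from that window.

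Lcn2, the targeted gene, was listed at 0.0650, 0.0741, 0.204 and 0.137 RPKM (reads scaled to gene length and library size) in saline libraries of wild type mice; those labelled Lcn2-/- gave 0.132, 0.204, 0.351 and 0.247. Wild type LPS libraries held 71.5, 67.8, 66.7 and 82.7 RPKM of it, and LPS libraries with the Lcn2-/- label 40.2, 34.1, 38.3 and 37.2 RPKM. Abundant Lcn2 transcript was thus measured under the knockout label, and which exons the reads came from was not analysed here, so genotype is given below as a label. The files hold log2 RPKM without counts, which leaves the depth of each library unknown. Saline replicate 4 labelled Lcn2-/- stood apart: 17112 genes reached 0.5 RPKM there against 16372 to 16497 elsewhere, and it lay at 0.885 on the second principal component against -0.186 to 0.130. Within its group it was the highest library for Nfkb1, Nfkb2, Rela, Nfkbie and Nfkbiz and the lowest for Relb, Bcl3, Nfkbia and Nfkbib. Its title alone among the 16 ends in a letter, whose meaning the labels do not explain. Without it, the log2 fold changes after LPS with the Lcn2-/- label were 1.38 for Relb, 1.87 for Nfkb2 and 1.69 for Nfkbia. They were 0.95 for Nfkbie, 2.16 for Nfkbiz and 0.65 for Rela, and all of these were still called by limma. Some other values of the members without it stand beside the results below. Pathway lists, overlapping genes and cell type markers are given only with it included.

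Of the 10 genes, 9 passed the filter on low values (0.5 RPKM in at least 3 libraries) and were tested among 17349 genes with limma, and a gene was called at a Benjamini-Hochberg adjusted p under 0.05. Of these, 8 reached 0.5 RPKM in all 16 libraries and are called the 8 steadily expressed members. Bcl3 passed only through its 8 LPS libraries, and Rel reached 0.5 RPKM in 1 library, so these 2 are described separately. The brain was measured as bulk tissue, in which fewer cells of a type and less RNA per cell cannot be told apart.

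In wild type saline brain, Nfkbia was the most abundant member at a geometric mean of 11.95 RPKM, followed by Rela at 7.09, Nfkbib at 6.44 and Nfkb1 at 2.64 RPKM. No library of any of these 4 genes overlapped those of the next gene in this order. Nfkbie (1.07 RPKM), Relb (1.07) and Nfkbiz (1.01) followed with overlapping libraries, then Nfkb2 at 0.639 RPKM. Rel (0.165 RPKM) and Bcl3 (0.144 RPKM) were lowest, and their libraries overlapped. After LPS in libraries labelled Lcn2-/-, the first 3 places were again Nfkbia (44.2 RPKM), Rela (11.04) and Nfkbib (7.66), without overlap. Nfkbiz had moved to the fourth place at 4.91 RPKM, and Nfkb1 (3.41), Relb (3.18), Bcl3 (2.72) and Nfkb2 (2.35) followed, each overlapping its neighbour. Nfkbie came next at 1.79 RPKM and Rel was lowest at 0.358 RPKM, with no overlap between Nfkb2, Nfkbie and Rel.

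**Figure D1:**
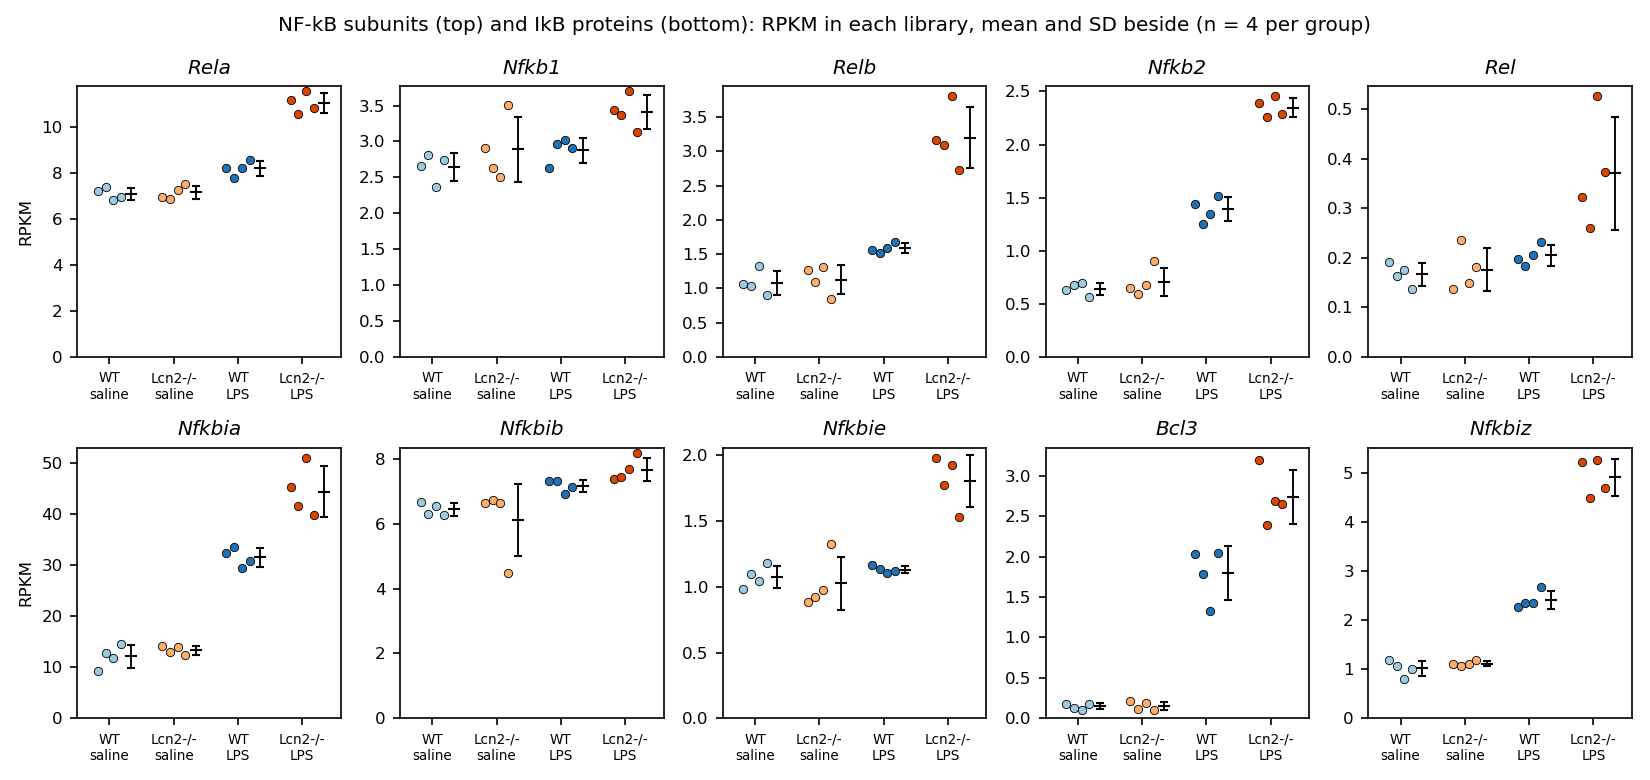
RPKM of each of the 10 members in each library (points, linear axes from 0), by genotype label and injection, with the mean and SD of each group of 4 beside the points. Mean Bcl3 went from 0.148 to 1.80 RPKM in wild type, and in every panel the 4 LPS libraries labelled Lcn2-/- lie above the 4 wild type LPS libraries.

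Rela, the abundant transactivating subunit of the canonical pathway, rose after LPS in both genotypes. Wild type libraries held 7.22, 7.42, 6.81 and 6.94 RPKM of it after saline and 8.24, 7.77, 8.21 and 8.59 RPKM after LPS. In libraries labelled Lcn2-/- it lay at 6.96, 6.89, 7.25 and 7.52 RPKM after saline and at 11.2, 10.6, 11.6 and 10.9 RPKM after LPS. The saline groups overlapped, and the LPS groups overlapped neither saline nor each other. The limma log2 fold change was 0.21 ± 0.044 (± SE throughout, n = 4 per group; 1.16-fold, adjusted p = 0.0019) in wild type and 0.63 ± 0.044 (1.54-fold, adjusted p = 1.2e-08) in libraries labelled Lcn2-/-. The difference between these responses, the interaction, was 0.42 ± 0.062 (adjusted p = 0.0018).

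Nfkb1 encodes the precursor of p50, the usual partner of Rela. Wild type brain held 2.66, 2.81, 2.36 and 2.75 RPKM of it after saline and 2.63, 2.96, 3.02 and 2.91 RPKM after LPS, which overlapped. Libraries labelled Lcn2-/- held 2.91, 2.63, 2.50 and 3.51 RPKM after saline and 3.44, 3.37, 3.71 and 3.13 RPKM after LPS; saline replicate 4 reached into the LPS range. The log2 fold change in wild type was 0.12 ± 0.094 (95% confidence interval -0.075 to 0.32, limma adjusted p = 0.38). In libraries labelled Lcn2-/- it was 0.25 ± 0.094 (1.19-fold, limma adjusted p = 0.038), and 0.35 (adjusted p = 0.0015) without saline replicate 4. That call was lost when any of saline replicates 1, 2 or 3 or LPS replicates 1, 2 or 3 labelled Lcn2-/- was left out (adjusted p from 0.057 to 0.12). The interaction for Nfkb1 was 0.13 ± 0.13 (adjusted p = 0.56).

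Relb and Nfkb2 encode the subunits of the noncanonical pathway, whose dimer forms when the Nfkb2 precursor is processed to p52. Relb measured 1.06, 1.03, 1.33 and 0.908 RPKM after saline and 1.55, 1.52, 1.59 and 1.68 RPKM after LPS in wild type. Under the Lcn2-/- label the values were 1.26, 1.09, 1.31 and 0.838 RPKM after saline and 3.17, 3.10, 3.81 and 2.73 RPKM after LPS. No LPS library overlapped saline in either genotype. Relb rose 1.48-fold in wild type (log2 0.56 ± 0.14, limma adjusted p = 0.0074) and 2.86-fold in libraries labelled Lcn2-/- (1.52 ± 0.14, limma adjusted p = 4.1e-07), with an interaction of 0.95 ± 0.20 (adjusted p = 0.013). Without saline replicate 4 labelled Lcn2-/- the interaction was 0.82 (adjusted p = 0.0067).

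Nfkb2 measured 0.633, 0.673, 0.695 and 0.565 RPKM after saline and 1.44, 1.25, 1.35 and 1.52 RPKM after LPS in wild type. For the Lcn2-/- label, 0.652, 0.592, 0.681 and 0.899 RPKM were measured after saline and 2.39, 2.25, 2.46 and 2.29 RPKM after LPS. The 3 levels (saline, wild type LPS, and LPS with the Lcn2-/- label) were separate in every library. Nfkb2 rose 2.17-fold in wild type (log2 1.12 ± 0.12, limma adjusted p = 2.3e-06) and 3.36-fold with the Lcn2-/- label (1.75 ± 0.12, limma adjusted p = 7.4e-09). The interaction of 0.63 ± 0.16 was called (limma adjusted p = 0.029), but not without wild type saline replicate 2 or 3, wild type LPS replicate 1, 2 or 3, or LPS replicate 3 labelled Lcn2-/- (adjusted p from 0.052 to 0.065). Without saline replicate 4 labelled Lcn2-/- it was 0.76 (adjusted p = 0.0024). Exons of Nfkb2 overlap Psd on the opposite strand; with strand use in the counting not given in the sources used here, reads of the overlap cannot be told apart. Psd lay at 49.7 to 63.7 RPKM in all libraries and was called in neither LPS comparison (log2 0.04 and -0.08, adjusted p = 0.78 and 0.38).

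Rel, a subunit best known from lymphocytes and macrophages, was near the low end of the scale. Its RPKM values were 0.191, 0.162, 0.175 and 0.136 in wild type saline, 0.198, 0.184, 0.205 and 0.233 in wild type LPS, 0.137, 0.235, 0.149 and 0.181 in saline libraries labelled Lcn2-/-, and 0.323, 0.259, 0.527 and 0.373 in LPS libraries with that label. The last group lay above all others. Rel was outside the main test. In a fit without the filter, its log2 fold change after LPS was 0.31 ± 0.25 in wild type (limma adjusted p = 0.34) and 1.06 ± 0.25 with the Lcn2-/- label (adjusted p = 0.0022), and its interaction did not pass (0.75 ± 0.35, adjusted p = 0.28). With that label, the unfiltered fit called 3910 of 33289 genes higher and 13898 lower, with a median log2 fold change of -0.32.

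Nfkbia encodes IkB-alpha, the inhibitor that is degraded and resynthesised within each response. In wild type it measured 9.23, 12.8, 11.8 and 14.7 RPKM after saline and 32.5, 33.5, 29.4 and 30.7 RPKM after LPS. Libraries with the Lcn2-/- label gave 14.2, 12.97, 13.9 and 12.3 RPKM after saline and 45.3, 41.6, 51.0 and 39.8 RPKM after LPS. The saline groups overlapped, and every LPS library labelled Lcn2-/- exceeded every wild type LPS library. Nfkbia rose 2.64-fold in wild type (log2 1.40 ± 0.11, limma adjusted p = 8.4e-08) and 3.32-fold with the Lcn2-/- label (1.73 ± 0.11, limma adjusted p = 4.2e-09). Its interaction did not pass (0.33 ± 0.15, limma adjusted p = 0.17) except without wild type saline replicate 1, the library with the lowest Nfkbia value (0.46, adjusted p = 0.033).

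Nfkbib encodes IkB-beta, an inhibitor with slower turnover. Wild type brain held 6.67, 6.29, 6.56 and 6.26 RPKM of it after saline and 7.32, 7.31, 6.91 and 7.14 RPKM after LPS, without overlap. Libraries of the Lcn2-/- label held 6.64, 6.74, 6.63 and 4.47 RPKM after saline, replicate 4 being the low value, and 7.38, 7.45, 7.68 and 8.17 RPKM after LPS, again without overlap. The log2 fold change was 0.15 ± 0.098 in wild type (limma adjusted p = 0.29) and 0.34 ± 0.098 with the Lcn2-/- label (adjusted p = 0.0091). Without saline replicate 4 labelled Lcn2-/- both were called, at 0.15 (limma adjusted p = 0.0046) and 0.20 (adjusted p = 7.6e-04). Exons of Nfkbib overlap Sirt2 (21.4 to 24.4 RPKM, called in no comparison) and Ccer2 on the opposite strand. Ccer2 was called higher after LPS with the Lcn2-/- label (log2 0.67 ± 0.18, limma adjusted p = 0.0063). It lay at 1.52 to 3.46 RPKM in labelled saline and at 3.57 to 4.25 RPKM in labelled LPS libraries. The lowest of these saline values, 1.52 RPKM, was in replicate 4, and no fit of Ccer2 without that library is given.

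Nfkbie encodes IkB-epsilon, an inhibitor known as a delayed feedback gene. In wild type it measured 0.985, 1.10, 1.04 and 1.18 RPKM after saline and 1.16, 1.14, 1.10 and 1.12 RPKM after LPS, which overlapped. Libraries of the Lcn2-/- label held 0.884, 0.924, 0.974 and 1.33 RPKM after saline and 1.97, 1.78, 1.92 and 1.53 RPKM after LPS, all above the other groups. The log2 fold change was 0.073 ± 0.12 in wild type (95% confidence interval -0.18 to 0.32, limma adjusted p = 0.72) and 0.82 ± 0.12 with the Lcn2-/- label (1.77-fold, adjusted p = 3.9e-05). The interaction was 0.75 ± 0.17 (limma adjusted p = 0.016), and 0.88 (adjusted p = 9.5e-04) without saline replicate 4 labelled Lcn2-/-.

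Bcl3 encodes a nuclear IkB protein that joins p50 and p52 dimers on DNA. Wild type brain held 0.182, 0.126, 0.104 and 0.180 RPKM of it after saline and 2.03, 1.79, 1.32 and 2.05 RPKM after LPS. Values with the Lcn2-/- label were 0.209, 0.117, 0.190 and 0.107 RPKM after saline and 3.19, 2.39, 2.69 and 2.65 RPKM after LPS. Every LPS library lay above every saline library. The difference in mean log2 RPKM was 3.62 in wild type and 4.19 with the Lcn2-/- label (4.03 without saline replicate 4 of that label). These differences are given as a description with no test, because Bcl3 passed the filter on low values only through its LPS libraries. Saline values lay under 0.5 RPKM, and a pseudocount shrinks the size: computed as log2(RPKM + 1), Bcl3 changed by 1.28 and 1.69. The interaction, which uses the same saline values and is also given with no test, was 0.57, and 0.41 on log2(RPKM + 1). Exons of Bcl3 overlap the predicted gene Gm16175 on the opposite strand, and reads of the overlap cannot be told apart. Gm16175 measured 0.0697 to 0.0951 RPKM in wild type saline, 0.485 to 0.8291 in wild type LPS, 0.0587 to 0.291 in saline labelled Lcn2-/- and 0.886 to 1.41 RPKM in LPS labelled Lcn2-/- libraries.

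Nfkbiz encodes IkB-zeta, a nuclear IkB protein known as a coactivator of secondary response genes such as Lcn2 and Il6. In wild type it measured 1.19, 1.07, 0.811 and 1.01 RPKM after saline and 2.28, 2.35, 2.36 and 2.67 RPKM after LPS. Mice labelled Lcn2-/- gave 1.11, 1.06, 1.11 and 1.18 RPKM after saline and 5.22, 4.49, 5.26 and 4.69 RPKM after LPS. The LPS groups did not overlap, and each lay above saline. Nfkbiz rose 2.39-fold in wild type (log2 1.25 ± 0.10, limma adjusted p = 9.6e-08) and 4.39-fold with the Lcn2-/- label (2.13 ± 0.10, limma adjusted p = 9.9e-11). The interaction was 0.88 ± 0.14 (adjusted p = 0.0029).

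Counted together, 5 of the 8 steadily expressed members were called higher after LPS in wild type, with a median log2 fold change of 0.39 against -0.025 over all genes tested. Over all genes, 11.4% were called higher and 13.9% lower in that comparison. With the Lcn2-/- label, 8 of 8 were called higher (median 1.17 against -0.028), where 20.7% of all genes were called higher and 27.7% lower. Wild type LPS libraries lay wholly above saline for 6 of the 8 members, and for 13.8% of all genes. With the Lcn2-/- label this held for 7 of 8 and for 18.6% of all genes. No member was called lower in any comparison. Adding 1 RPKM before taking logs shrank the changes of lower-expressed members, to 0.54 and 0.98 for Nfkb2, 0.32 and 0.98 for Relb, 0.76 and 1.48 for Nfkbiz, and 0.037 and 0.47 for Nfkbie (wild type first). Their calls were the same on that scale.

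**Figure D2:**
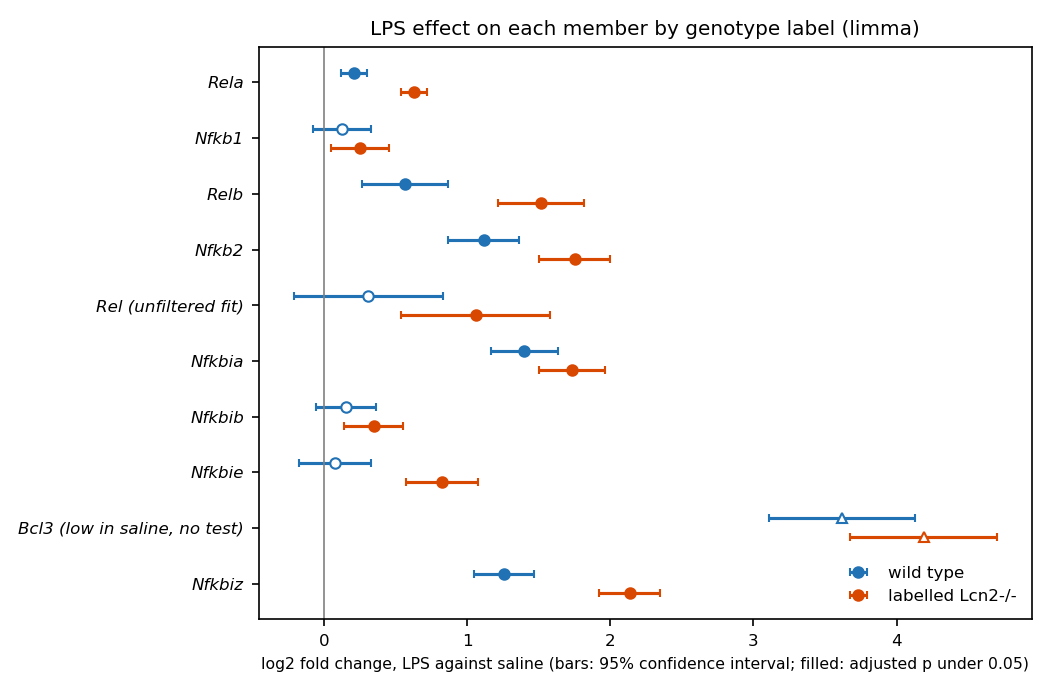
Limma log2 fold change after LPS with its 95% confidence interval (bars) for each member, in wild type libraries and in libraries labelled Lcn2-/-; filled points passed at an adjusted p under 0.05, and Rel is from the fit without the filter. Bcl3 (open triangles, 3.62 and 4.19) is shown with no test, since it passed the filter only through its LPS libraries, and among the 8 steadily expressed members Nfkb1 and Nfkbib have the smallest estimates with the Lcn2-/- label (0.25 and 0.34).

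The genotype comparison asked whether the label mattered with and without the challenge. After saline, limma called 0 of the 9 tested members, with 0 also at an unadjusted p under 0.05, and log2 differences from -0.094 (Nfkbib) to 0.16 (Nfkbia). The 9 include Bcl3, whose saline values all lay under 0.5 RPKM. Over all genes, 0.0346% were called higher and 0.0115% lower with the Lcn2-/- label. The 95% confidence interval was -0.081 to 0.10 for Rela and -0.076 to 0.39 for Nfkbia. With saline replicate 4 labelled Lcn2-/- left out, differences ran from -0.21 (Nfkbie) to 0.21 (Bcl3), with Relb at 0.19 and Nfkbib at 0.050, and none was called.

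After LPS, 6 of the 8 steadily expressed members were higher with the Lcn2-/- label (median difference 0.58 against -0.0098 over all genes), where 7.04% of all genes were called higher and 8.74% lower. Nfkbiz was 2.04-fold higher (log2 1.03 ± 0.10, limma adjusted p = 1.6e-05) and Relb 2.01-fold (1.004 ± 0.14, limma adjusted p = 3.5e-04). Nfkb2 was 1.69-fold higher (0.76 ± 0.12, limma adjusted p = 6.6e-04), Nfkbie 1.59-fold (0.67 ± 0.12, adjusted p = 0.0019), Nfkbia 1.40-fold (0.49 ± 0.11, adjusted p = 0.0082) and Rela 1.35-fold (0.43 ± 0.044, adjusted p = 2.3e-05). Nfkb1 (0.25 ± 0.094, limma adjusted p = 0.087) and Nfkbib (0.097 ± 0.098, adjusted p = 0.54) were not called, nor was Bcl3 (0.62 ± 0.24, adjusted p = 0.094). Without saline replicate 4 labelled Lcn2-/-, which enters this comparison only through the shared estimate of spread, Nfkb1 (adjusted p = 0.017) and Bcl3 (0.044) were called and Nfkbib was not (0.063). All 8 steadily expressed members, and Bcl3 and Rel, had every LPS library labelled Lcn2-/- above every wild type LPS library, which held for 13.3% of all genes.

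The interaction was called for 5 of the 8 steadily expressed members, all in the direction of a larger response with the Lcn2-/- label: Nfkbiz, Relb, Nfkbie, Nfkb2 and Rela. Over all genes, 3.9% had a called positive interaction and 4.92% a called negative interaction. The sign alone does not give the size of a response, since a gene that falls more with the label has a negative interaction. The genotype comparison after LPS and the interaction share the LPS libraries, so these calls are not separate observations. LPS replicate 3 labelled Lcn2-/- was the highest library of its group for 7 of the 10 genes.

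The makeup of the family shifted after LPS. Of the summed RPKM of the 5 subunits, Rela made up a median of 61.4% in wild type saline, 59.3% in saline labelled Lcn2-/-, 57.3% in wild type LPS and 54.3% in LPS labelled Lcn2-/- libraries. Nfkb2 made up 5.47%, 5.60%, 9.77% and 11.6% in the same order, and Nfkb1 22.9%, 23.7%, 20.2% and 16.8%. The cytoplasmic inhibitors Nfkbia, Nfkbib and Nfkbie summed to 1.69, 1.81, 2.76 and 2.63 times the subunit sum. Nfkbia made up 62.1% and 65.0% of the inhibitor sum after saline and 79.1% and 82.4% after LPS, wild type first. The labelled saline medians without replicate 4 were 60.2% for Rela, 5.47% for Nfkb2, 23.0% for Nfkb1 and 64.6% for Nfkbia, with inhibitors at 1.81 times the subunits. These shares are descriptions without a test.

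**Figure D3:**
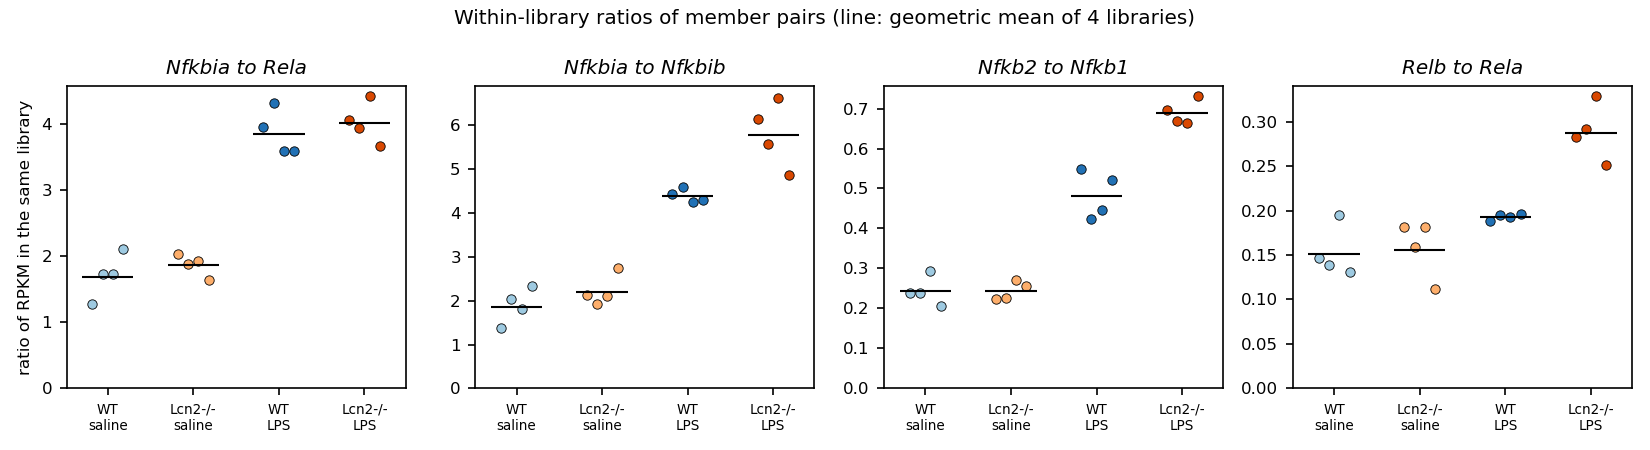
Ratio of the RPKM values of 2 members within each library (points, linear axes from 0) for Nfkbia to Rela, Nfkbia to Nfkbib, Nfkb2 to Nfkb1 and Relb to Rela, with a line at the geometric mean of each group of 4. The Nfkbia to Rela ratio overlaps between the LPS groups, while the other 3 ratios are higher in every LPS library labelled Lcn2-/- than in any wild type LPS library.

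Ratios within a library were compared by a two-sided exact permutation test over libraries, in 12 comparisons adjusted together; with 4 against 4, the smallest p possible is 0.0286, or 0.0343 after adjustment here. Nfkbia per Rela rose from 1.69 to 3.84 in wild type (2.28-fold) and from 1.86 to 4.00 with the Lcn2-/- label (2.15-fold), both at an exact adjusted p = 0.0343. After LPS, the groups overlapped in this ratio, at 3.84 and 4.00 (1.04-fold, exact adjusted p = 0.46). Nfkb2 per Nfkb1 rose from 0.242 to 0.482 in wild type and from 0.243 to 0.689 with the Lcn2-/- label, and was 1.43-fold higher with the label after LPS (exact adjusted p = 0.0343 for each). Relb per Rela went from 0.151 to 0.193 in wild type with overlapping groups (exact adjusted p = 0.0935), rose from 0.155 to 0.288 with the Lcn2-/- label, and was 1.49-fold higher with the label after LPS (exact adjusted p = 0.0343 for both). Nfkbia per Nfkbib rose 2.37-fold and 2.61-fold and was 1.31-fold higher with the label after LPS (exact adjusted p = 0.0343 for each). Without saline replicate 4 labelled Lcn2-/-, the 4 rises with that label were 2.06-fold, 2.88-fold, 1.66-fold and 2.82-fold, in the order of the ratios above.

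The rest of the pathway was described from 5 lists of genes outside the members, counting only genes at 0.5 RPKM in every library. Other tested genes of the lists are given as values, since several passed the filter only through the libraries in which they were high. Of 23 textbook target genes, 17 were tested and 9 were at 0.5 RPKM throughout. Of these 9, 7 were called higher after LPS in wild type (median log2 fold change 0.44) and 9 with the Lcn2-/- label (median 0.81), and 0 were lower in either. The exceptions in wild type were Gadd45b and Cd83. Between the LPS groups, 6 of the 9 were higher with the label, and 5 had a called interaction. Over all genes, 11.4% were called higher after LPS in wild type and 20.7% with the label. The shares called higher were 7.04% between the LPS groups and 3.9% for the interaction. Icam1, an adhesion molecule gene singled out after its values were seen, rose by 2.95 ± 0.10 and 4.23 ± 0.10 in the 2 genotypes (limma adjusted p = 6.7e-12 and 1.4e-13). The chemokine gene Cxcl10 lay at 0.115 to 0.390 RPKM in saline libraries of both genotypes, at 8.07 to 25.4 RPKM in wild type LPS and at 77.6 to 126.8 RPKM in LPS libraries labelled Lcn2-/-. Cxcl2, a neutrophil-attracting chemokine gene, measured at most 0.101 RPKM after saline, 1.70 to 2.42 RPKM in wild type LPS and 6.79 to 17.9 RPKM in LPS with the label. Cxcl1, another such gene, measured at most 0.302 RPKM after saline, 9.82 to 11.3 RPKM in wild type LPS and 23.7 to 40.8 RPKM in LPS with the label. For these 3 genes the LPS groups did not overlap. They were named for the largest changes after LPS with the label and passed the filter only through LPS libraries, so no test is given.

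Of 14 genes of the IKK complex and its upstream kinases, 12 were at 0.5 RPKM in every library. Of these, 2 were higher and 0 lower after LPS in wild type (median -0.020), and 2 were higher and 1 lower with the Lcn2-/- label (median 0.081). Over all genes, 11.4% and 20.7% were called higher in these comparisons, and 13.9% and 27.7% lower. Ripk1, a kinase at the tumour necrosis factor receptor, rose by 0.34 ± 0.082 and 0.95 ± 0.082, and Tbk1 by 0.14 ± 0.046 and 0.25 ± 0.046. Among the 12, the interaction was called positive for 1 (Ripk1, 0.61 ± 0.12) and negative for 1 (Chuk), against 3.9% and 4.92% of all genes. Map3k8, a kinase held by the Nfkb1 precursor, was under 0.5 RPKM in all saline libraries and reached 1.39 to 1.56 RPKM in wild type LPS and 2.26 to 2.67 RPKM in LPS with the label. Chuk, the IKK-alpha catalytic subunit, fell with the Lcn2-/- label (-0.34 ± 0.050, limma adjusted p = 5.3e-05). It was not called in wild type (-0.047 ± 0.050, limma adjusted p = 0.56), and its interaction was -0.29 ± 0.071 (adjusted p = 0.022). Chuk and Ripk1 were named for their calls with the label, so their interactions are no separate test of a genotype difference. Map3k7, the kinase TAK1, passed in no comparison.

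Among 15 adaptors and ubiquitin ligases, 12 were at 0.5 RPKM in every library. Of these, 3 were higher and 2 lower in wild type, and 4 higher and 2 lower with the Lcn2-/- label (medians 0.020 and 0.015). The shares over all genes were 11.4% higher and 13.9% lower in wild type, and 20.7% and 27.7% with the label. Myd88, the adaptor of Toll-like receptors, rose by 1.004 ± 0.074 and 1.51 ± 0.074. Rnf31, the catalytic subunit of the linear ubiquitin ligase, rose by 0.38 ± 0.083 and 0.72 ± 0.083. Among the 12, the interaction was called positive for 3 (Myd88, Birc2 and Sharpin) and negative for 0, against 3.9% and 4.92% of all genes. Traf3, which restrains the noncanonical pathway, fell by 0.17 and 0.36, and Tradd by 0.24 and 0.38. Birc3, a ubiquitin ligase that limits the noncanonical pathway, was at most 0.364 RPKM after saline and reached 0.732 to 1.10 RPKM in wild type LPS and 1.70 to 2.40 RPKM in LPS with the label. Traf5 lay near the filter, at geometric means of 0.479 RPKM in wild type saline, 0.393 in wild type LPS, 0.446 in labelled saline and 0.324 in labelled LPS libraries. Ube2n was not called in any comparison.

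Of 15 brakes on the pathway outside the members, 12 were at 0.5 RPKM in every library. In wild type 2 were higher and 2 lower, and with the Lcn2-/- label 6 were higher and 2 lower (medians 0.055 and 0.17). The shares over all genes were 11.4% higher and 13.9% lower in wild type, and 20.7% and 27.7% with the label. Tnip1, a binding partner of the ubiquitin-editing protein A20, rose by 0.49 ± 0.053 and 0.99 ± 0.053. Tnfaip3, the A20 gene, lay at 0.431 to 0.673 RPKM in saline libraries, at 0.970 to 1.11 RPKM in wild type LPS and at 2.17 to 3.19 RPKM in LPS with the label. Zc3h12a, an RNase that degrades inflammatory transcripts, lay at 0.302 to 0.612 RPKM after saline, at 0.947 to 1.17 RPKM in wild type LPS and at 1.80 to 2.30 RPKM in LPS with the label. Itch fell with the Lcn2-/- label (-0.25 ± 0.048, limma adjusted p = 4.9e-04) and was not called in wild type (-0.0021, adjusted p = 0.98). Its interaction was negative (limma adjusted p = 0.035). N4bp1 fell by 0.15 and 0.24. Among the 12, the interaction was called positive for 2 (Tnip1 and Tax1bp1) and negative for 1 (Itch), against 3.9% and 4.92% of all genes. Tnip1 and Itch were named for their calls with the label, so their interactions are no separate test. The deubiquitinase gene Cyld was not called in any comparison.

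Of 12 receptors and ligands of the noncanonical pathway, 6 were tested and 5 were at 0.5 RPKM in every library. In wild type 2 of these 5 were higher and 1 lower, and with the Lcn2-/- label 3 were higher and 1 lower (medians 0.14 and 0.39). The shares over all genes were 11.4% higher and 13.9% lower in wild type, and 20.7% and 27.7% with the label. Cd40 had geometric means of 0.133 RPKM in wild type saline, 0.301 in wild type LPS, 0.137 in labelled saline and 1.12 RPKM in labelled LPS libraries, and passed the filter through the last group. Ltbr, the lymphotoxin-beta receptor, rose by 0.73 ± 0.14 and 1.27 ± 0.14 and Tnfrsf11a by 0.29 ± 0.10 and 0.73 ± 0.10, while the ligand gene Tnfsf12 fell by 0.49 and 0.63. Tnfsf13b was not called in any comparison. After saline, the genotype label gave 0 called genes in each of the 5 lists, where 0.0346% of all genes were called higher and 0.0115% lower.

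**Figure D4:**
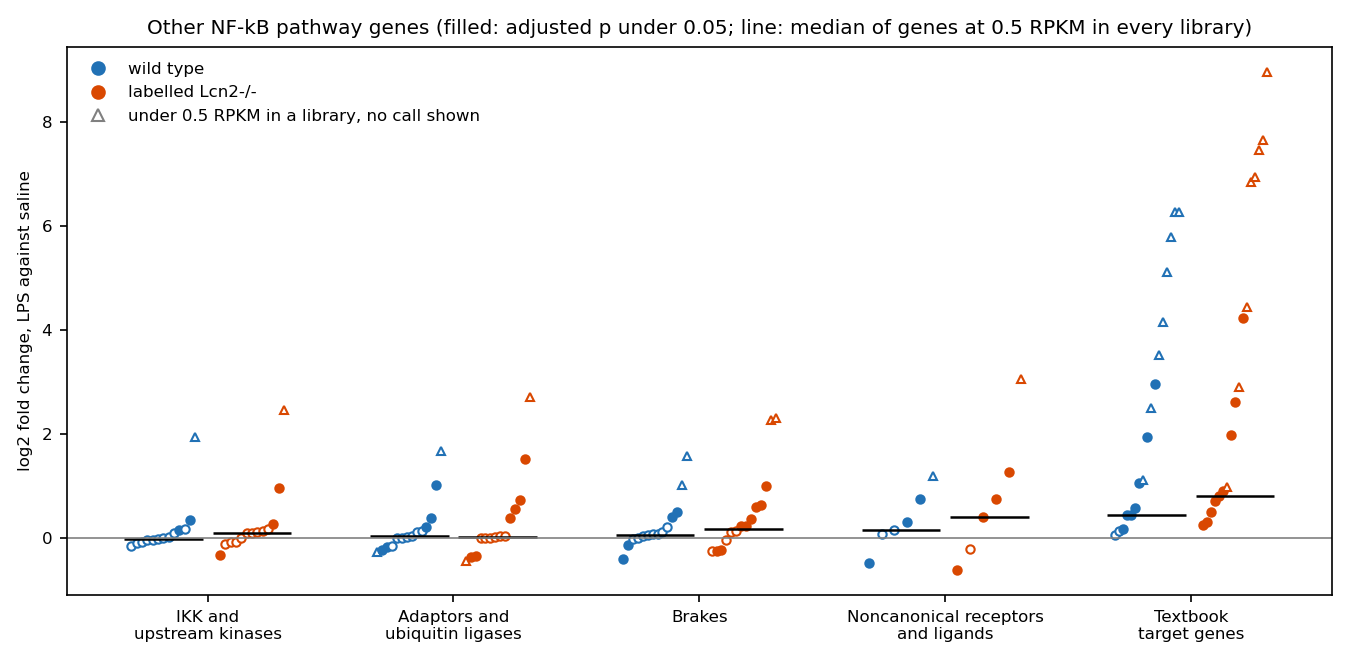
Limma log2 fold change after LPS for each tested gene of the 5 pathway lists (points), in wild type libraries and in libraries labelled Lcn2-/-; filled circles passed at an adjusted p under 0.05. Triangles are genes under 0.5 RPKM in some library, shown with no call, and each line is the median of the circles of a list: 0.44 and 0.81 for textbook target genes, and near 0 for the kinase and adaptor lists.

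Genes whose pattern over the 16 libraries was most like 4 of the members were named by Pearson correlation of log2 RPKM, as a description; all the libraries share the LPS contrast. Nfkbia was closest to Fas (r = 0.990), Mlkl (0.988) and Sdc4 (0.986), and Nfkb2 to Zc3h12a (0.995), Olfr56 (0.991) and Cxcl9 (0.991). Bcl3 was closest to Gm20412 (0.993), Ccl5 (0.992) and Zbp1 (0.992), and Rela to Calhm6 (0.985), Art3 (0.984) and Pde4b (0.982).

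Markers of the cell types in brain were read beside these changes. Over all genes, 11.4% were called higher and 13.9% lower after LPS in wild type, and 20.7% and 27.7% with the label. Between the LPS groups, 7.04% were called higher with the label and 8.74% lower. All 5 markers of neurons, of astrocytes and of oligodendrocytes reached 0.5 RPKM in every library, as the tissue label requires. The summed level of 5 microglial markers lay at 67.6 to 71.6 RPKM in wild type saline and 47.5 to 53.9 after LPS, and at 65.0 to 73.4 and 46.0 to 50.9 RPKM with the Lcn2-/- label. Of these, 4 of 5 fell in wild type and 5 of 5 with the label, and 1 was lower with the label after LPS. Of 5 astrocyte markers 2 rose in each genotype (231 to 250 RPKM in wild type saline, 299 to 326 after LPS, and 225 to 257 and 306 to 342 with the label). Of 4 endothelial markers at 0.5 RPKM in every library, 1 rose (Cdh5) and 2 fell in each genotype. Those that fell were Flt1 and Cldn5 in wild type, and Flt1 and Pecam1 with the label. The remaining marker, Tek, was under 0.5 RPKM in some LPS libraries and is given with no test. It lay at 2.49 to 2.87 RPKM in wild type saline and 0.455 to 0.653 after LPS. With the label it lay at 2.06 to 2.88 RPKM after saline and 0.280 to 0.384 after LPS. All 5 endothelial markers summed to 49.6 to 58.4 RPKM after saline and 39.4 to 47.4 after LPS in wild type, and to 38.1 to 49.8 and 41.9 to 52.1 RPKM with the label. Of 10 neutrophil markers, 2 were at 0.5 RPKM in every library. Both were called higher after LPS in each genotype, and 0 were called between the LPS groups. The summed level of the 10 was 3.22 to 9.14, 5.07 to 7.42, 10.8 to 17.01 and 11.2 to 27.8 RPKM in wild type saline, labelled saline, wild type LPS and labelled LPS libraries. The defining granulocyte gene Ly6g was at most 0.115 RPKM in any library. Monocyte markers summed to 1.30 to 1.69, 1.09 to 1.77, 2.48 to 2.65 and 2.16 to 2.91 RPKM in the same order. Of these 5 markers, 0 were at 0.5 RPKM in every library, so no calls are counted. Of the 4 endothelial markers, 1 was higher and 1 lower with the label after LPS, and of 7 T and B cell markers only 1 was tested. Erythroid markers (4 of 5 tested) summed to 4.91 to 11.8 RPKM in wild type saline, 4.21 to 7.47 in labelled saline, 3.72 to 5.35 in wild type LPS and 5.54 to 8.66 RPKM in labelled LPS libraries, the LPS groups not overlapping. Of the erythroid markers, 2 were at 0.5 RPKM in every library, and 0 of them were called after LPS or between the LPS groups. Hba-a1 changed by log2 -1.02 after LPS in wild type and differed by 0.97 ± 0.31 with the label after LPS. It reached down to 0.418 RPKM in wild type LPS, so no call is given for it. Choroid plexus markers summed to 473 to 494, 473 to 646, 415 to 454 and 462 to 473 RPKM in the same order, and 2 of 5 were lower after LPS in each genotype. The part of these cell types in the levels of the members was not tested.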

How the data were processed

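Per the labels, total RNA from hemi-brains of 16 mice was sequenced after Illumina library preparation, with 4 libraries for each combination of genotype label and injection; the series' design text gives 3 to 4 replicates. The authors deposited 1 table of log2 RPKM values after conditional quantile normalization, a correction for gene length and GC content, per the file headers. Build mm10 is named in the submitters' processing notes. Not given in the sources used here are the aligner, the counting method, its use of strand and the annotation. No counts were analysed here, so depth and counting error are unknown and precision rests on the spread between libraries. Every sample column was used.

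IDs were matched to symbols and positions in GENCODE vM21 (GRCm38): 32695 of 33289 IDs (98.2%) matched. Genes with a log2 RPKM of at least -1 (0.5 RPKM) in at least 3 libraries were tested: 17349 genes, with 15940 removed. A group-means model of the 4 groups was fitted with limma 3.58.1 in R 4.3.3 (empirical Bayes with a trend on the mean, two-sided), with Benjamini-Hochberg adjustment over all genes tested and a threshold of 0.05. The model was tested on simulated data. No label says that libraries came from separate litters or days, so each p-value reflects only sample-to-sample spread, which may be partly technical. RPKM values in the text are 2 to the power of the deposited values.

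Members, gene lists and tests were chosen with earlier results of these data known. Named genes were all 10 members, Lcn2, from each pathway list up to 3 called higher and 3 called lower genes with the largest change in libraries labelled Lcn2-/- and the uncalled gene with the highest mean, and the 3 genes most correlated with each of Nfkbia, Nfkb2, Bcl3 and Rela. Sequences are from RefSeq tables (GRCm38.p6). Alternatives were other filters, pseudocounts of 0.5 and 1, sample weights, quantile normalization, removal of GC and length trends, a fit of only the groups compared, and leaving out each library. A comparison of the proteins was not run.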

Additional observations from a re-analysis of the deposited data

Results flagged for a closer look

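Nfkbib in saline replicate 4 labelled Lcn2-/- was flagged because its value, 4.47 RPKM, lay far below the other 3 libraries of its group (6.63 to 6.74 RPKM) by Dixon's criterion. Of 40 groups of 4 examined for the members, chance flags about 1 in 20. The same library stood apart from all others over all genes.

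The LPS response of 5 members differed between the genotype labels by limma's interaction test, each larger with the Lcn2-/- label. The interaction on the log2 scale was 0.95 for Relb (adjusted p = 0.013), 0.88 for Nfkbiz (0.0029) and 0.75 for Nfkbie (0.016). It was 0.63 for Nfkb2 (limma adjusted p = 0.029) and 0.42 for Rela (0.0018). All 4 LPS libraries labelled Lcn2-/- lay above all 4 wild type LPS libraries for each of these genes, while the saline groups overlapped.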

How the results depend on the processing

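Counts of called members moved little. Over all alternatives, 6 to 7 of the 9 tested (Bcl3 included) were called after LPS in wild type, 7 to 9 with the Lcn2-/- label, 0 for genotype after saline, 6 to 8 for genotype after LPS, and 4 to 6 for the interaction. Bcl3 passed the filter only through its LPS libraries, so its part in these counts is no test of its LPS response. Without Bcl3, the main fit called 5 of the 8 steadily expressed members after LPS in wild type and 8 of 8 with the label. Values that changed sign were all in the genotype comparison after saline, where nothing was called. Rela moved from 0.012 to -0.0082 with sample weights, and from -0.012 to 0.033 when single libraries were left out. Nfkbib moved from -0.094 to 0.047 with sample weights, and from -0.15 to 0.050 over left-out libraries. Bcl3 moved from 0.048 to -0.021 with quantile normalization and from -0.11 to 0.21 over left-out libraries, and Relb from -0.029 to 0.19. Fitting only the groups compared ended the calls of Nfkb1 (adjusted p = 0.098) and Nfkbib (0.059) after LPS with the Lcn2-/- label. Dropping the filter ended the interaction call of Nfkb2 (0.054). After LPS, the genotype difference of Bcl3 passed on log2(RPKM + 0.5), on log2(RPKM + 1), with only the groups compared and with quantile normalization (adjusted p from 0.0027 to 0.038), and that of Nfkb1 with sample weights, only the groups compared, or GC and length trends removed (0.016 to 0.041). Nfkbib after LPS in wild type passed with only the groups compared (0.011) and with sample weights (0.0064). The cause was not tested. Over all genes, the count called went from 4389 to 13790 (LPS, wild type) and from 8386 to 17808 (LPS, Lcn2-/- label) without a filter, which adds genes of low values. For genotype after saline it ran from 3 to 34 (8), after LPS from 1532 to 5295 (2739), and for the interaction from 727 to 3030 (1530). Without counts, what depth limits cannot be said. No paired analysis was possible because the groups share no replicate numbers in the labels.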
